A study of Mus musculus with 48 samples.

Results

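Mouse embryonic fibroblasts (MEFs) without HMGN1 and HMGN2, which bind nucleosomes (double knockout, DKO), were compared with wild-type (WT) MEFs at day 8 of their differentiation into adipocytes. The comparison takes in every gene that passed a filter on low counts, which kept 15117 of the 55450 genes of the table, in 6 of the 48 RNA-seq libraries of the series, 3 WT and 3 DKO. The other libraries are MEFs of days 0, 4 and 12 and inguinal preadipocytes, and the comparison asks how the genotypes differ when the adipogenic medium has acted for 8 days. Both genotypes are labelled C57BL/6. In DKO mice exons of Hmgn1 and Hmgn2 were deleted in the germ line, so that every cell of the culture carries both deletions from before differentiation, and WT cells carry neither. MEFs were isolated from midgestation embryos and used at early passage. All 6 cultures received, after confluence, a medium with 1 μM rosiglitazone, 1 nM T3, 0.5 mM IBMX, 5 μM dexamethasone and 0.5 μg/ml insulin, and day 8 is the last day of that medium before 4 days of maintenance medium. The labels number the libraries of each group 1 to 3 but do not say whether these came from separate embryos or cultures. The study calls its MEF data biological replicates without naming the unit, so p-values measure the spread between these libraries, part of which may be technical. The libraries held 18962483 to 27043814 counts, and levels are given as CPM (counts scaled to a common library size) on 1 scale for all 24 MEF libraries.

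HMGN proteins bind nucleosomes without preference for DNA sequence and are found at open chromatin, where they compete with linker histone. Adipogenesis of fibroblasts is driven by the nuclear receptor PPARγ and by C/EBP factors, which switch on genes of fatty acid uptake, triglyceride synthesis and lipid droplets. Rosiglitazone activates PPARγ, T3 is a thyroid hormone, and a medium that holds both favours brown-like adipocytes, whose hallmark is the mitochondrial uncoupling protein UCP1.

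Before any comparison of genotypes, WT replicate 2 and DKO replicate 3 stood apart from the other 2 libraries of their genotype. Adipoq, the gene of the adipokine adiponectin, was at 250.1, 19.7 and 244 CPM in WT replicates 1 to 3 and at 387, 264 and 18.4 CPM in DKO replicates 1 to 3. Fabp4, a fatty acid-binding protein of adipocytes, was at 2820, 399 and 2695 CPM in WT and at 5668, 4188 and 620.2 CPM in DKO libraries. In both genotypes 1 library thus had far less adipocyte mRNA than its 2 companions. Of 13615 genes with a mean of at least 1 CPM, 627 were at least 2-fold lower and 300 at least 2-fold higher in WT replicate 2 than in both other WT libraries, whereas WT replicates 1 and 3 differed that much in 12 genes in one direction and 6 in the other. DKO replicate 3 was at least 2-fold lower than both other DKO libraries in 603 genes and higher in 142, whereas DKO replicate 1 was higher than DKO replicate 2 by as much in 18 genes and lower in 84. The same 435 genes were lower and the same 112 higher in both of these libraries. Only 19 genes separated all 3 DKO from all 3 WT libraries by 2-fold (4 higher and 15 lower in DKO).

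The expression profiles of 4 libraries went against their labelled day. Across the tested genes, WT replicate 2 of day 8 had a Spearman correlation of 0.992 with the mean of the WT libraries of day 4 and of 0.973 with the other 2 of day 8. For DKO replicate 3 of day 8 these values were 0.992 and 0.972. In contrast, the other 4 libraries of day 8 were nearest to their own day (0.984 to 0.994, against 0.971 to 0.981 for day 4). At day 4, WT replicate 1 and DKO replicate 3 were nearer to day 8 (0.994 and 0.994) than to the other libraries of day 4 (0.98 and 0.987). Genes are not independent replicates and these values are a description. No batch is labelled, the labels were kept, and whether the cultures had advanced unequally or libraries were exchanged was not tested. Hmgn2 placed all 6 libraries of day 8 in the genotype of their label. Results are therefore given for the 6 libraries and, as an alternative added after these values were seen, calls in the main lists and in many of the named genes are also given without WT replicate 2 and DKO replicate 3. These 2 libraries were set apart by adipocyte genes, so the smaller spread of adipocyte genes among the other 4 is not independent evidence.

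**Figure D1:**
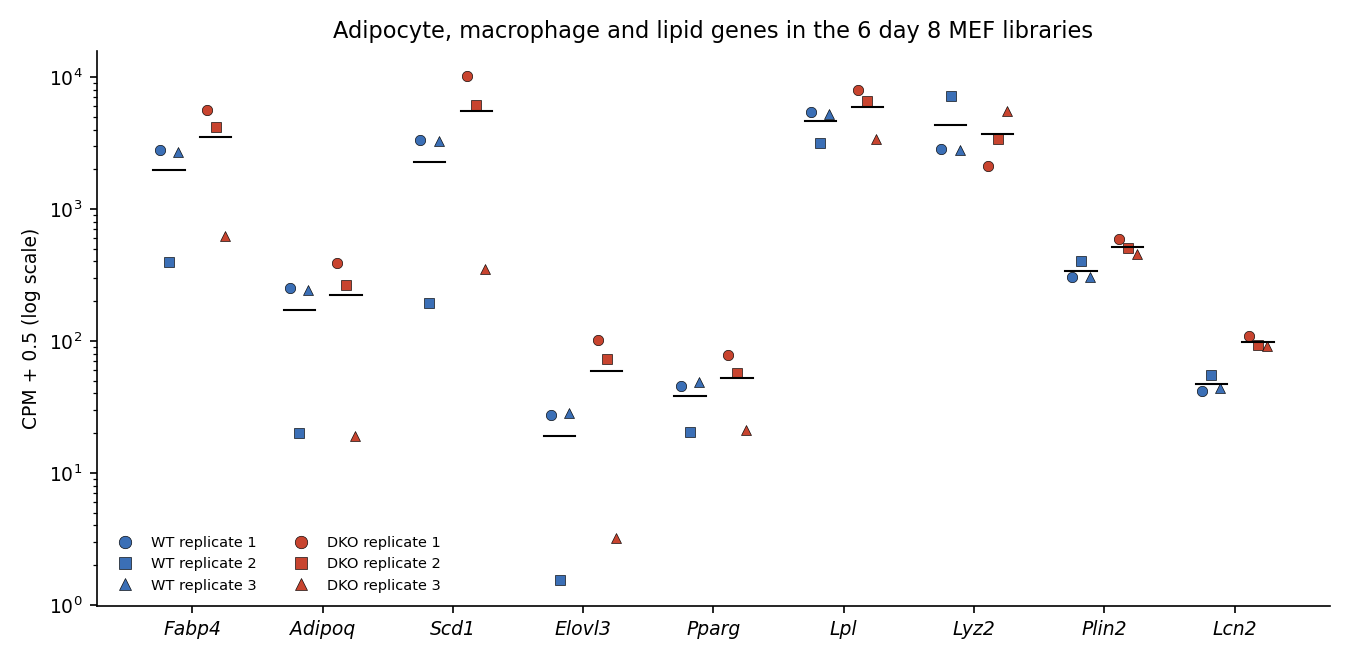
Levels of 9 genes in each day 8 library (CPM + 0.5, log scale), with symbols for the replicate, colours for the genotype and bars at the group means. WT replicate 2 and DKO replicate 3 lie below the others of their genotype for Fabp4, Adipoq, Scd1, Elovl3, Pparg and Lpl and above them for Lyz2, while Lcn2 is higher in all 3 DKO libraries.

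The targeted genes were examined first. Hmgn2 (chr4:133964738-133968650, minus strand, mm10) was at 150.5, 144 and 152 CPM in WT libraries and at 0, 0 and 0.111 CPM in DKO libraries. The DKO value rests on 3 counts in replicate 3 against 9431 counts over the WT libraries, and Hmgn2 was called lower (adjusted p = 0.000639 in the quasi-likelihood test of edgeR, adjusted by Benjamini-Hochberg). Hmgn1 (chr16:96120618-96127729, minus strand) was at 167, 181 and 169 CPM in WT and at 114, 106 and 85 CPM in DKO libraries, so that its level was lower and not near 0. The groups did not overlap, but the gene did not pass the test (log2 fold change -0.78 ± 0.11 SE, adjusted p = 0.177 in edgeR's test). It did without the 2 libraries (log2 fold change -0.63, adjusted p = 0.00236 in edgeR's test). Hmgn1 was called lower by DESeq2 with the 6 libraries (adjusted p = 2.72e-05). It was also called lower at day 8 in 1 edgeR fit over all 24 MEF libraries (adjusted p = 0.00631). Counts per gene pool all exons, so the reads of Hmgn1 in DKO cells do not check the deletion itself. Of the other family members, Hmgn5, a larger HMGN protein encoded on the X chromosome, was at 21.6, 21.5 and 21.04 CPM in WT and at 27.2, 24.2 and 22.6 CPM in DKO libraries. Hmgn3 was at 42.0, 94.6 and 34.7 CPM in WT and at 35.7, 49.0 and 84.9 CPM in DKO libraries. Hmgn3 was highest in the same 2 libraries in which adipocyte genes were low, and neither gene passed the test (adjusted p = 0.993 for Hmgn3 and 0.644 for Hmgn5 in edgeR's test). Hmgb1, a DNA-bending chromatin protein and the most abundant gene of the HMGN, HMGA and HMGB list, was at 192, 179 and 187 CPM in WT and at 236, 233 and 213 CPM in DKO libraries. These groups did not overlap, and the difference did not pass the test (adjusted p = 0.466 in edgeR's test).

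A call needed an adjusted p under 0.05 together with a change of 1.5-fold or more. Of 15117 genes, 9 (0.0595%) met both at day 8, with 2 higher (0.0132%) and 7 lower (0.0463%) in the DKO libraries. By unadjusted p under 0.05 there were 1295 genes (8.57%). The called genes were Hmgn2, 6 genes with predicted names that are copies of other genes or lie antisense, 1 locus without a gene class, and Folh1. They are spread over 6 chromosomes, with 3 on chromosome 7, 2 on chromosome 8 and 1 each on chromosomes 4, 9, 13 and 14. None belongs to the adipocyte lists. All 9 had no overlap between the 3 DKO and 3 WT libraries, as had 15.4% of all tested genes. All 9 were also called without WT replicate 2 and DKO replicate 3. When any 1 library was left out, the calls fell to 5 or 6 genes, and Folh1, Gm10182, Gm26782 and Gm45104 were lost each time.

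Of the called genes, 5 share most of their sequence with a gene expressed in these cells, so that short reads can be placed on either. Gm10182 (chr9:22321105-22321377) and Gm10282 (chr8:72304110-72305260) are intronless copies of Hmgn2. Gm8730 (chr8:102864845-102865798) and Gm9625 (chr13:67810246-67811200) are processed pseudogenes of Rplp0, the gene of a ribosomal stalk protein. Gm3375 (chr7:3181093-3181888) is a processed pseudogene of Psmb5, the gene of a catalytic proteasome subunit. Transcript sequences of the GENCODE M21 annotation (mm10) were aligned to find what separates a copy from its parent. Gm10182 was identical to Hmgn2 over all 273 bases, and Gm10282 over 1143 of 1151 (99.3%). Gm8730 matched Rplp0 in 942 of 954 bases (98.7%), Gm9625 in 930 of 955 (97.4%), and Gm3375 matched Psmb5 in 787 of 796 (98.9%). Windows of 50 bases, the length of 1 read, that occur unchanged in the parent made up all of Gm10182, 74.0% of Gm10282, 39.4% of Gm8730, 31.1% of Gm9625 and 56.2% of Gm3375. RSEM divides reads that fit several genes between them, so the level of each of these copies is uncertain.

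A stretch of 60 coding bases of each parent shows how few bases tell the copies apart. Capitals mark the positions at which the sequences of a set are not all alike. The Rplp0 stretch (chr5:115560823-115560882, plus strand) is shown with those of Gm8730 (chr8:102865603-102865662, minus strand) and Gm9625 (chr13:67810382-67810441, plus strand), which differ from it in 2 and 3 bases.
Rplp0: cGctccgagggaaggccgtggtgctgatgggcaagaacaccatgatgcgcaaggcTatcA
Gm8730: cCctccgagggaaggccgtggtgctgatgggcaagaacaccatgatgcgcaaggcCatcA
Gm9625: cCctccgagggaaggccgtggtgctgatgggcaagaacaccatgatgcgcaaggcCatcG
The Psmb5 stretch (chr14:54616697-54616756, minus strand) differs in 2 bases from that of Gm3375 (chr7:3181357-3181416, plus strand).
Psmb5: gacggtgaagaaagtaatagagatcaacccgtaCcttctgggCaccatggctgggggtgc
Gm3375: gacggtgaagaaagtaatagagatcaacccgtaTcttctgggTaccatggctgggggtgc
The Hmgn2 stretch (chr4:133965987-133966046, minus strand) has no difference from Gm10182 (chr9:22321177-22321236, minus strand) or Gm10282 (chr8:72304981-72305040, minus strand), so the same line stands for all of them.
Hmgn2: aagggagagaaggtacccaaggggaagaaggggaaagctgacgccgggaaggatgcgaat

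The Hmgn2 copies fell with Hmgn2. Gm10282 was at 9.12, 8.70 and 9.67 CPM in WT and at 0.0487, 0 and 0.0370 CPM in DKO libraries (adjusted p = 0.00258, edgeR's test). Gm10182 was at 3.59, 4.04 and 3.85 CPM in WT libraries and had 0 counts in every DKO library, at least 95.5-fold lower when 3 counts over the DKO group are taken as the floor (adjusted p = 0.0389, edgeR's test). In both copies the 3 DKO libraries were at or near 0 and the WT libraries lay close together, as for Hmgn2. Hmgn2 and its copies summed to 163, 157 and 166 CPM in WT libraries and to at most 0.148 CPM in a DKO library.

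In the Rplp0 family the copies fell, whereas the parent had its higher level in DKO cells. Gm8730 was at 518, 561 and 556 CPM in WT and at 12.6, 14.7 and 13.8 CPM in DKO libraries (log2 fold change -5.33 ± 0.11 SE, adjusted p = 3.02e-05, edgeR's test). Gm9625 was at 125, 119 and 122 CPM in WT and at 7.59, 10.5 and 9.02 CPM in DKO libraries (log2 fold change -3.77, adjusted p = 0.000632, edgeR's test). Rplp0 itself (chr5:115559467-115563727) was at 1141, 1213 and 1187 CPM in WT and at 1980, 2077 and 2067 CPM in DKO libraries. It was 1.73 times as high in DKO cells on average, and just missed the test with 6 libraries (adjusted p = 0.0591, edgeR's test) while passing it without the 2 libraries (adjusted p = 0.00084, edgeR's test). Rplp0 was called higher by DESeq2 with the 6 libraries (adjusted p = 2.80e-24). It was also called higher at day 8 in 1 edgeR fit over all 24 MEF libraries (adjusted p = 4.33e-06). Parent and copies together summed to 1848 ± 56.1 CPM in WT and 2064 ± 55.3 CPM in DKO libraries (SD, n = 3), a ratio of 1.12.

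Gm3375 was at 1.13, 1.17 and 0.851 CPM in WT and at 29.97, 30.8 and 22.6 CPM in DKO libraries (log2 fold change 4.70 ± 0.20 SE, adjusted p = 0.000882, edgeR's test). Psmb5 (chr14:54614119-54618022) was at 72.6, 75.8 and 73.4 CPM in WT and at 64.3, 60.8 and 51.7 CPM in DKO libraries and did not pass the test (adjusted p = 0.445, edgeR's test). Their sum was 75.0 ± 1.75 CPM in WT and 86.7 ± 10.8 CPM in DKO libraries (SD, n = 3). The sums of these families were formed after the calls were seen, so that no test of them is given.

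Of the other called loci, Gm45104 (chr7:18396516-18400865, a locus whose transcript class is still to be settled in the annotation) had 0 counts in all 3 WT libraries and 8.32, 11.3 and 12.4 CPM in DKO libraries. That is at least 227-fold higher with 3 counts over the WT group as the floor (adjusted p = 0.0362, edgeR's test). Gm26782 (chr14:50870324-50880603), an antisense transcript, was at 8.53, 8.88 and 11.9 CPM in WT and at 1.85, 1.29 and 1.52 CPM in DKO libraries (log2 fold change -2.67, adjusted p = 0.0350, edgeR's test). The libraries were made with a stranded kit, but how the counting used strand is not given in the sources used here, so its reads may not be told from those of a gene on the other strand. Folh1 (chr7:86718977-86775943), the gene of a membrane carboxypeptidase that releases glutamate from folate and from a neuropeptide, was the only called protein-coding gene that is neither a target nor a copy of one. It was at 121, 128 and 114 CPM in WT and at 68.7, 61.6 and 63.2 CPM in DKO libraries, a fall by 0.93 on the log2 scale (SE 0.075, adjusted p = 0.0312, edgeR's test). Folh1 lost its call in 1 fit over all MEF days (adjusted p = 0.617, edgeR's test). In that fit its day 0 libraries ranged from 0.880 to 28.8 CPM and the DKO libraries of day 4 from 64.9 to 119.5 CPM, whose part in the loss was not tested.

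**Figure D2:**
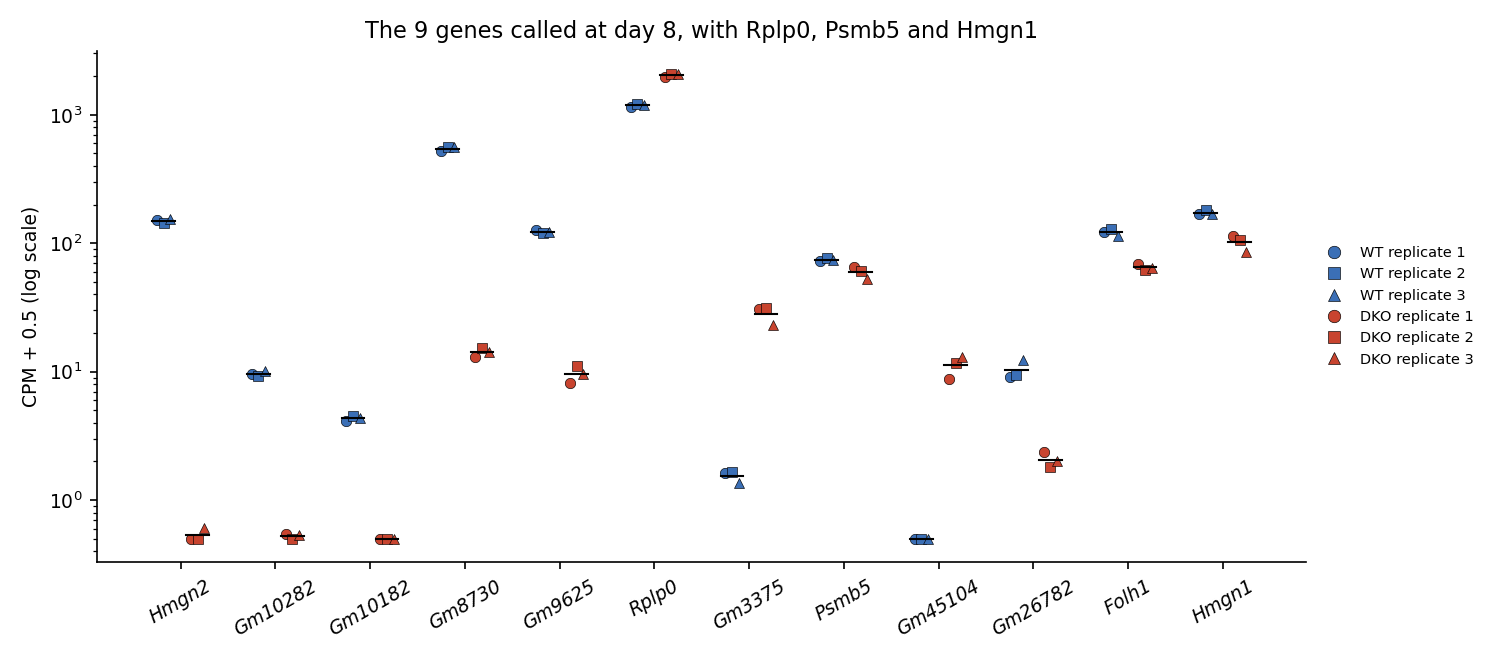
Levels of the 9 called genes and of Rplp0, Psmb5 and Hmgn1 in each day 8 library (CPM + 0.5, log scale), with bars at the group means. For every gene shown the 3 DKO libraries lie apart from the 3 WT libraries, and points at 0.5 are libraries with a level of 0.

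The calls of day 8 recurred at the other days, whose libraries are separate. The labels do not say whether the days share embryos or cultures, so this recurrence is not shown to be independent. Whether libraries of days 4 and 8 were exchanged was not tested. Of the 9 genes, 7 were called in the same direction at day 0 (77.8% of the day 8 calls and 43.8% of the 16 calls of day 0, 0.102% of the genes tested there). At day 4, 8 were called (88.9%, and 57.1% of that day's 14 calls, 0.0905% of tested genes), and at day 12 all 9 (0.736% of that day's 1222 calls, 7.98% of tested genes). Gm8730 had log2 fold changes of -5.51, -5.17, -5.33 and -5.81 at days 0, 4, 8 and 12, and Gm3375 of 4.84, 4.38, 4.70 and 4.45. For Folh1 the values were 1.00, -0.71, -0.93 and -1.11, and it was called at days 8 and 12. Its level in WT cells was 1.66 to 10.2 CPM at day 0 and 114 to 149 CPM from day 4 on.

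**Figure D3:**
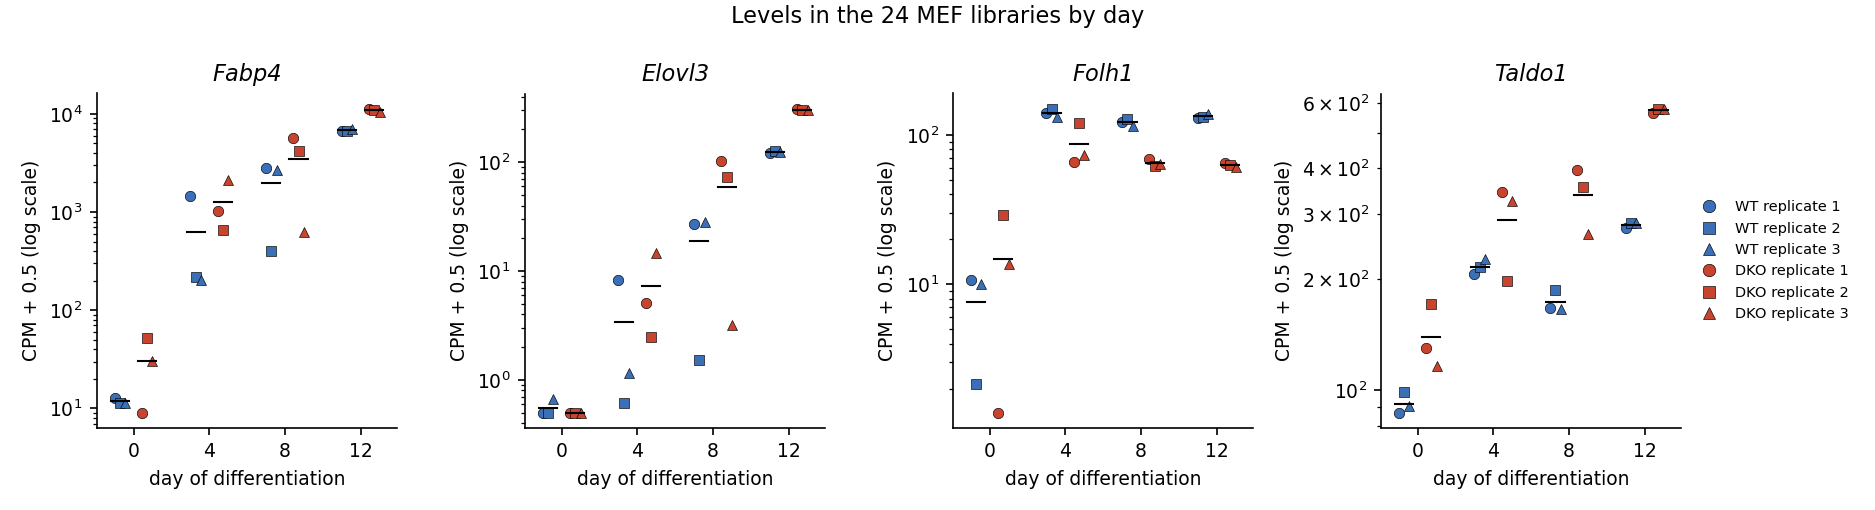
Levels of Fabp4, Elovl3, Folh1 and Taldo1 in the 24 MEF libraries by day of differentiation (CPM + 0.5, log scale), with bars at the group means. At day 8 WT replicate 2 and DKO replicate 3 have Fabp4 levels of 399 and 620.2 CPM, within the range of the day 4 libraries (201 to 2126 CPM), and at day 12 the libraries of a genotype lie close together.

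Adipocyte genes were higher in DKO cells on average, but the spread within each genotype was larger than the difference. All 25 tested genes of the adipocyte marker list had a positive log2 fold change, with a median of 0.80 against -0.01 over all tested genes, and none was called. When 1 library was left out, that median lay between 0.27 (without DKO replicate 1) and 1.29 (without DKO replicate 3), and it was 0.42 without WT replicate 2. Summed over the list, WT libraries had 13740, 5073 and 13540 CPM and DKO libraries 25350, 18740 and 5979 CPM. The highest level was thus in DKO replicate 1 and the lowest in WT replicate 2, and DKO replicate 3 lay under WT replicates 1 and 3. In 1 of the 25 genes the DKO libraries all exceeded the WT libraries, beside 8.24% of all tested genes. In bulk RNA, more cells of a type and more RNA per cell cannot be told apart.

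Among these genes, Lep, the gene of the satiety hormone leptin, was at 0.375, 0.493 and 0.269 CPM in WT and at 2.77, 1.75 and 1.37 CPM in DKO libraries (log2 fold change 2.33, adjusted p = 0.257, edgeR's test). It was the member without overlap, and its highest WT level was in replicate 2. Lpl, the lipase that frees fatty acids from lipoproteins, was the most abundant at 5408, 3159 and 5270 CPM in WT and 7938, 6522 and 3417 CPM in DKO libraries (adjusted p = 0.830, edgeR's test). Dgat2, which catalyses the last step of triglyceride synthesis, was at 151, 81.1 and 158 CPM in WT and at 319, 235 and 107 CPM in DKO libraries (adjusted p = 0.697, edgeR's test). For Lpl and Dgat2 DKO replicates 1 and 2 exceeded every WT library and DKO replicate 3 did not. Fabp4 was 1.77 times as high in DKO cells by the group means and had an adjusted p of 0.857 in edgeR's test.

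Without WT replicate 2 and DKO replicate 3, 609 of 15217 genes (4%) were called, 346 higher (2.27%) and 263 lower (1.73%) in DKO cells. Of these, 331 were also called in the same direction at day 12, 54.4% of the 609 and 27.1% of the 1222 calls of day 12, and 1 was called in the opposite direction. In this fit 14 of 25 adipocyte markers were called higher and none lower (median 0.83). They included Fabp4 (1.79-fold by the means, adjusted p = 0.0255, edgeR's test), Lep (adjusted p = 0.00905, edgeR's test) and Dgat2 (adjusted p = 0.0245, edgeR's test). Adipoq did not pass, at 1.32 times the WT level (adjusted p = 0.243, edgeR's test), and Lpl (adjusted p = 0.0318, edgeR's test) at 1.35 times the WT level lay under the fold threshold. At day 12, with all 6 libraries, 18 of 25 markers were called higher, beside 3.92% of all genes tested there.

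Genes that store and release fat followed the same pattern. Of 18 tested genes of lipid droplets and lipolysis none was called with 6 libraries (median 0.69). Without the 2 libraries 10 were called higher, beside 2.27% of all tested genes. Plin2, a lipid droplet coat protein made by many cell types, was at 303, 403 and 304 CPM in WT and at 591, 503 and 456 CPM in DKO libraries, so that its groups did not overlap (adjusted p = 0.438, edgeR's test). Plin5, the droplet protein of oxidative tissues, was at 5.74, 0.897 and 5.46 CPM in WT and at 22.04, 17.0 and 2.52 CPM in DKO libraries. Pnpla2, the first lipase of triglyceride breakdown, was at 593, 182 and 601 CPM in WT and at 1310, 931 and 255 CPM in DKO libraries. Plin5 and Pnpla2 were lowest in the 2 libraries that stood apart, and all of these genes were called higher without them (adjusted p = 0.00220 for Plin2, 0.00117 for Plin5 and 0.0279 for Pnpla2 in edgeR's test).

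Of 22 genes of fatty acid and triglyceride synthesis, 18 had a positive log2 fold change (median 0.58) and none was called with 6 libraries. Without the 2 libraries 8 were called higher, beside 2.27% of all tested genes. Scd1, the desaturase that makes monounsaturated fatty acids, ranged from 192 to 3311 CPM in WT and from 351 to 10179 CPM in DKO libraries. Fasn, the fatty acid synthase, was at 1299, 410.2 and 1358 CPM in WT and at 2971, 1945 and 481 CPM in DKO libraries. Neither passed either test (adjusted p = 0.832 and 0.806 with 6 libraries, 0.0502 and 0.0544 with 4, edgeR's test). Me1, the malic enzyme that supplies NADPH, was at 225, 151 and 227 CPM in WT and at 612, 438 and 186 CPM in DKO libraries and was called with 4 libraries (adjusted p = 0.0125, edgeR's test). None of 23 cholesterol synthesis genes was called in either fit (medians 0.23 and 0.26).

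Among 22 adipokines and secreted factors none was called with 6 libraries (median 0.49). With 4 libraries 8 were called higher, beside 2.27% of all tested genes. Agt, the angiotensin precursor, was at 228, 120 and 255 CPM in WT and at 625, 514 and 230 CPM in DKO libraries (adjusted p = 0.550 with 6 and 0.00161 with 4 libraries, edgeR's test). Apoe, the gene of an apolipoprotein made by both macrophages and adipocytes, was at 986, 1570 and 1027 CPM in WT and at 1960, 1979 and 1308 CPM in DKO libraries. Its highest WT level was in replicate 2, the library with the highest sum of macrophage markers. Among DKO libraries, however, replicate 3 had the highest sum of macrophage markers (8443 CPM) and the lowest Apoe level. With the 4 other libraries Apoe was called higher (1.96-fold, adjusted p = 0.000333, edgeR's test). Lcn2, a secreted carrier of siderophores and of lipids, was at 40.9, 54.9 and 43.3 CPM in WT and at 109, 93.3 and 90.8 CPM in DKO libraries. It was 2.11 times as high in DKO cells with no overlap, but missed the test with 6 libraries (adjusted p = 0.0988, edgeR's test) and was called with 4 (adjusted p = 0.000532, edgeR's test). At day 12 its log2 fold change was 0.02.

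The genes that the study names for MEFs were low or variable at day 8, and none was called. Pparg was at 44.7, 19.96 and 48.0 CPM in WT and at 78.1, 56.6 and 20.6 CPM in DKO libraries (log2 fold change 0.44 ± 0.54 SE, adjusted p = 0.860, edgeR's test). Ppara, the receptor that drives fatty acid oxidation, was at 3.65, 1.84 and 4.03 CPM in WT and at 6.57, 5.37 and 1.48 CPM in DKO libraries. For both receptors DKO replicates 1 and 2 were above all WT libraries and DKO replicate 3 was not. Elovl3, a fatty acid elongase that is induced by cold in brown fat, was at 26.8, 1.03 and 27.8 CPM in WT and at 101, 72.4 and 2.7 CPM in DKO libraries (log2 fold change 1.63 ± 1.39 SE, adjusted p = 0.791, edgeR's test). It was the only 1 of the 7 that was called without the 2 libraries (3.18-fold, adjusted p = 0.00603, edgeR's test). Adrb3, the β3-adrenergic receptor, was at 4.35, 0.493 and 5.37 CPM in WT and at 10.3, 6.62 and 1.11 CPM in DKO libraries. Ppargc1b, a coactivator of mitochondrial genes, was at 9.07, 2.24 and 11.0 CPM in WT and at 16.4, 8.41 and 3.37 CPM in DKO libraries, and its ranges overlapped also among the other 4 libraries. Ucp1 and Cidea, a lipid droplet protein of brown fat, did not pass the filter with 6 libraries. Ucp1 had 16 counts over the WT and 57 over the DKO libraries (at most 1.46 CPM), and Cidea 3 and 22 counts (at most 0.487 CPM). At day 12, 6 of the 7 genes were called higher (3.92% of all genes tested there), and Pparg, which was not, fell short of the fold threshold (log2 fold change 0.58, adjusted p = 8.66e-06, edgeR's test).

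Of 24 tested brown and beige adipocyte markers none was called with 6 libraries (median 0.29, 15 positive and 9 negative), and without DKO replicate 1 the median was -0.04. Without the 2 libraries 4 were called higher and 2 lower. Ebf2, a transcription factor that marks brown fat precursors, was on the low side, at 9.44, 3.77 and 9.22 CPM in WT and at 3.65, 4.11 and 2.74 CPM in DKO libraries (log2 fold change with 4 libraries -1.28, adjusted p = 0.00361, edgeR's test). WT replicates 1 and 3 lay above all DKO libraries, and WT replicate 2 lay among them. Among 36 adipogenic transcription factors none was called with 6 libraries. In the fit of 4 libraries 2 were called higher and 2 lower, beside 2.27% and 1.73% of all tested genes. Klf15, a glucocorticoid-induced factor of adipogenesis, was at 25.7, 31.0 and 29.1 CPM in WT and at 47.9, 40.1 and 36.2 CPM in DKO libraries without overlap (adjusted p = 0.436 with 6 and 0.0109 with 4 libraries, edgeR's test). Dlk1, the preadipocyte factor that restrains differentiation, was at 1483, 678 and 1525 CPM in WT and at 1154, 1067 and 480.4 CPM in DKO libraries (adjusted p = 0.805, edgeR's test). Of 11 AP-1 genes none was called in either fit.

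Mitochondrial genes had positive medians and no call with 6 libraries. Of 75 nuclear genes of oxidative phosphorylation, all 75 had a positive log2 fold change, with a median of 0.26. With 4 libraries 2 were called higher, near the share of all tested genes (2.27%). When 1 library was left out the median of the 75 genes ranged from 0.11 (DKO replicate 1) to 0.48 (DKO replicate 3). Their sum was 8001, 5843 and 8041 CPM in WT and 11350, 9790 and 5860 CPM in DKO libraries, again with the lowest values in the 2 libraries that stood apart. All 25 TCA cycle genes were positive (median 0.31, with a range of 0.08 to 0.54 when 1 library was left out, lowest without DKO replicate 1) and 6 were called higher with 4 libraries. Pcx, the pyruvate carboxylase that refills the cycle, was at 612, 480 and 635 CPM in WT and at 1316, 961 and 660 CPM in DKO libraries, which did not overlap (adjusted p = 0.529 with 6 and 0.0256 with 4 libraries, edgeR's test). Of 27 genes of fatty acid β-oxidation 26 were positive (median 0.44, with a range of 0.10 to 0.72 when 1 library was left out) and 8 were called higher with 4 libraries. Echs1, the enoyl-CoA hydratase, was at 97.7, 60.5 and 94.2 CPM in WT and at 240, 190 and 110 CPM in DKO libraries, and every DKO library exceeded every WT library. The gene was 2.14 times as high in DKO cells by the group means (log2 fold change 1.07 ± 0.32 SE, adjusted p = 0.486 with 6 and 0.00248 with 4 libraries, edgeR's test). Acaa1b, a peroxisomal thiolase, was at 12.1, 8.48 and 13.6 CPM in WT and at 49.4, 36.05 and 12.54 CPM in DKO libraries (adjusted p = 0.516 with 6 and 0.00388 with 4 libraries, edgeR's test). Of the 13 mRNAs encoded in mitochondrial DNA, 9 were positive and none was called with 6 libraries. Reads of mitochondrially encoded genes made up 3.88%, 4.42% and 3.88% of WT and 4.47%, 4.6% and 4.57% of DKO libraries, so that this share, which can also follow RNA or cell quality, was higher in every DKO library. One of them, mt-Cytb, was at 5289, 5295 and 5293 CPM in WT and at 6651, 6732 and 5686 CPM in DKO libraries (adjusted p = 0.549, edgeR's test). In contrast to the nuclear genes, mt-Cytb was not lower in WT replicate 2.

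**Figure D4:**
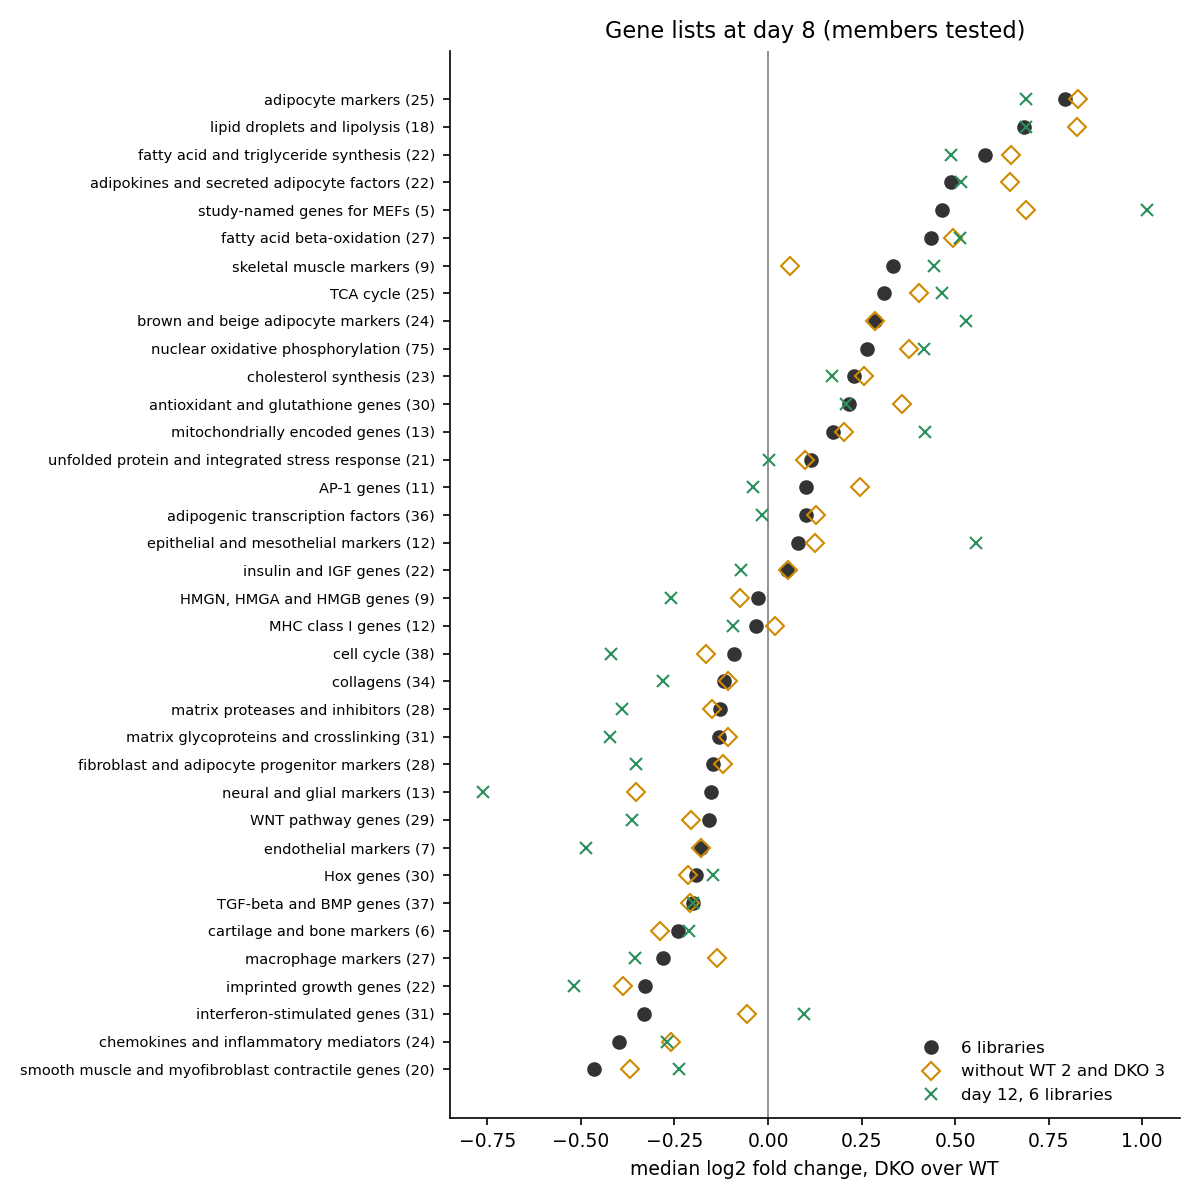
Median log2 fold change (DKO over WT) of the tested genes of each list with at least 5 of them, at day 8 with 6 libraries (filled circles), at day 8 without WT replicate 2 and DKO replicate 3 (open diamonds) and at day 12 (crosses). Lists of adipocyte, lipid and mitochondrial genes lie on the positive side in all 3 fits, led at day 8 by adipocyte markers at 0.80, and contractile genes lie lowest at -0.47 in the 6-library fit. Imprinted genes lie lowest without the 2 libraries (-0.39) and neural markers at day 12 (-0.76).

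Fibroblast and matrix genes were not called with 6 libraries. Of 28 fibroblast and progenitor markers 20 were negative (median -0.15), of 34 collagens 23 (median -0.12), and of 31 matrix glycoproteins 24 (median -0.13). The fibroblast list nevertheless summed to 19500, 18910 and 19870 CPM in WT and to 20320, 20850 and 18820 CPM in DKO libraries, which overlap. Without DKO replicate 3 the median of collagens was 0.06. Cd55, a complement regulator of adipocyte progenitors, was at 94.8, 107 and 94.1 CPM in WT and at 51.6, 64.6 and 54.5 CPM in DKO libraries, with no overlap (log2 fold change -0.81 ± 0.11 SE, adjusted p = 0.130, edgeR's test). Vcan, a large matrix proteoglycan, was at 3199, 2774 and 3101 CPM in WT and at 2318, 2186 and 2378 CPM in DKO libraries (adjusted p = 0.365, edgeR's test). Col11a2, a fibrillar collagen of cartilage, went the other way at 11.1, 10.2 and 11.5 CPM in WT and 21.4, 18.2 and 15.7 CPM in DKO libraries (adjusted p = 0.257, edgeR's test). In all of these genes the 3 libraries of a genotype lay closer together than for the adipocyte genes. With 4 libraries Cd55 was called lower (adjusted p = 0.00618, edgeR's test), Col11a2 higher (adjusted p = 0.00780, edgeR's test), and Vcan lay under the fold threshold. Of 20 contractile genes of smooth muscle and myofibroblasts, 18 were negative with the lowest median of the lists in the 6-library fit (-0.47), and none was called in either fit. Cell cycle genes were negative in 31 of 38 cases (median -0.09). In the fit of 4 libraries 1 was called lower, beside 1.73% of all tested genes.

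The imprinted growth genes had a median of -0.33, with 18 of 22 negative and none called with 6 libraries. With 4 libraries 1 was called higher and 4 lower, beside 2.27% and 1.73% of all tested genes. Igf2, a fetal growth factor, was at 6036, 2844 and 6176 CPM in WT and at 4043, 3627 and 2118 CPM in DKO libraries (adjusted p = 0.684 with 6 and 0.00226 with 4 libraries, edgeR's test). H19, the noncoding RNA of the same imprinted domain, was at 10882, 6599 and 11503 CPM in WT and at 8386, 7811 and 5070 CPM in DKO libraries (adjusted p = 0.693, edgeR's test). Both genes were lowest in WT replicate 2 and DKO replicate 3 and lower in DKO replicates 1 and 2 than in WT replicates 1 and 3. Sgce, a paternally expressed sarcoglycan gene, was higher in DKO libraries, at 25.01, 26.6 and 40.5 CPM against 17.6, 23.5 and 17.8 CPM (adjusted p = 0.543, edgeR's test).

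The cultures held macrophages besides fibroblasts and adipocytes. Adgre1, Csf1r and C1qa, defining markers of macrophages, were between 104 and 175 CPM, 139 and 192 CPM, and 267 and 372 CPM in the 6 libraries. Of 27 tested macrophage markers 25 were negative (median -0.28), 5 had DKO libraries below all WT libraries (7.13% of all tested genes had), and none was called in either fit. The list summed to 6081, 11210 and 6085 CPM in WT and to 4666, 6501 and 8443 CPM in DKO libraries, highest in the 2 libraries with least adipocyte mRNA. Its most abundant member was Lyz2, the lysozyme of myeloid cells, at 2844, 7229 and 2803 CPM in WT and at 2125, 3394 and 5505 CPM in DKO libraries. Lyz2 made up most of the list sum in WT replicate 2 and in DKO replicate 3. Ctss, a lysosomal protease of macrophages, did not share that pattern, at 116, 123 and 119 CPM in WT and at 90.3, 103 and 85.2 CPM in DKO libraries (adjusted p = 0.373, edgeR's test). Csf1r was at 178, 182 and 192 CPM in WT and at 157, 181 and 139 CPM in DKO libraries. C1qa was at 346, 368 and 372 CPM in WT and at 308, 359 and 267 CPM in DKO libraries. Both were lowest in DKO replicate 3, whereas Adgre1 was highest in WT replicate 2 (175 CPM) and, among DKO libraries, in replicate 3 (133 CPM). The part of macrophage mRNA in the differences of other genes was not tested.

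Several defining markers of other cell types were near 0, and none of those tested was called with 6 libraries. Pecam1 of endothelium had at most 0.215 CPM, and Myod1 and Myog of muscle, Epcam and Krt5 of epithelium and Acan of cartilage had at most 0.292 CPM in any library. Others were present, such as Cdh5 of endothelium at 1.04 to 5.69 CPM, Sox9 of cartilage at 7.54 to 11.1 CPM and Tubb3 of neurons at 7.24 to 11.6 CPM. The endothelial list summed to 128 to 133 CPM in WT and to 109 to 126 CPM in DKO libraries, without overlap. Its members were mixed: of the 7 tested, 3 were positive and 4 negative, and 1 had all DKO libraries below all WT libraries. Krt8, an epithelial keratin, was at 0.107, 0.314 and 0.134 CPM in WT and at 0.925, 0.876 and 1.04 CPM in DKO libraries (adjusted p = 0.262 with 6 and 0.0185 with 4 libraries, edgeR's test). Des, an intermediate filament protein of muscle, was at 14.8, 19.7 and 15.6 CPM in WT and at 2.97, 12.1 and 1.70 CPM in DKO libraries (adjusted p = 0.607, edgeR's test). Both genes had groups that did not overlap. Ncam1, a neural adhesion molecule also made by mesenchyme, was at 40.6, 37.1 and 44.8 CPM in WT and at 23.99, 30.4 and 32.2 CPM in DKO libraries, and was called lower with 4 libraries (adjusted p = 0.0131, edgeR's test). The Y-linked genes Ddx3y, Kdm5d, Uty and Eif2s3y had 0 counts in the 6 libraries, and Xist, the RNA of the inactive X chromosome, had 1314 to 1818 CPM, so the groups did not differ in these marks of sex.

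Of 24 chemokines and inflammatory mediators 19 were negative (median -0.40) and none was called with 6 libraries. Ccl2, which attracts monocytes, was at 14.1, 19.4 and 16.2 CPM in WT and at 8.27, 9.86 and 11.8 CPM in DKO libraries, without overlap (adjusted p = 0.437, edgeR's test). With 4 libraries Ccl2 was called lower and Lcn2 higher, the only members of the list in that fit. Of 31 interferon-stimulated genes 25 were negative with 6 libraries (median -0.33), and the median became 0.28 when WT replicate 2 was left out, -0.92 when DKO replicate 3 was, and -0.06 with neither. Antioxidant genes were mostly positive (28 of 30, median 0.22), with 3 called higher with 4 libraries. Gpx3, a secreted glutathione peroxidase, was at 909, 559 and 903 CPM in WT and at 1330, 1495 and 1156 CPM in DKO libraries, again without overlap (adjusted p = 0.486 with 6 and 0.00300 with 4 libraries, edgeR's test). The lists of Hox (30 tested genes), WNT (29) and TGF-β and BMP genes (37) had medians of -0.19, -0.16 and -0.20 and no call with 6 libraries. With 4 libraries 3 Hox genes were called lower, 1 WNT gene higher and 2 lower, and 1 TGF-β and BMP gene lower. Of all tested genes 2.27% were called higher and 1.73% lower in that fit.

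Genes outside the lists that edgeR called without the 2 libraries and not with all 6 are named here after their values were seen. Scara3, a scavenger receptor-like protein, was at 105, 41.1 and 104 CPM in WT and at 41.7, 38.5 and 18.01 CPM in DKO libraries (log2 fold change -1.40 with 4 libraries, adjusted p = 5.19e-05, edgeR's test). Il1rn, the antagonist of the interleukin-1 receptor, was at 53.0, 6.91 and 50.6 CPM in WT and at 17.8, 19.3 and 4.59 CPM in DKO libraries (log2 fold change -1.49, adjusted p = 7.56e-05, edgeR's test). In both, DKO replicates 1 and 2 lay far below WT replicates 1 and 3, and so did WT replicate 2. Ang5, of the angiogenin ribonuclease family on chromosome 14 whose members resemble each other, had 0 counts in WT libraries and 16.7, 14.9 and 0.481 CPM in DKO libraries (adjusted p = 0.486 with 6 and 5.19e-05 with 4 libraries in edgeR's test, 0.00119 with 6 in DESeq2). Ang (chr14:51091150-51102009), of the same family, was lower at 4.82, 4.95 and 3.402 CPM in DKO against 17.4, 12.3 and 15.4 CPM in WT libraries (adjusted p = 0.0801 with 6 and 0.00063 with 4 libraries, edgeR's test). Ang was called lower by DESeq2 with 6 libraries (adjusted p = 9.37e-11). It was also called lower at day 8 in 1 edgeR fit over all 24 MEF libraries (adjusted p = 0.0145).

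The neighbours of the targeted loci were examined as well. Within 5 Mb of Hmgn1, 45 genes other than the target were tested and none was called with 6 libraries, and within 5 Mb of Hmgn2 none of 150. With 4 libraries 2 of 44 (4.55%) near Hmgn1 and 1 of 151 (0.662%) near Hmgn2 were called, beside 4% of all tested genes. Neither share was clearly above that of all genes. Those near Hmgn1 were Cbr1 and Cbr3, neighbouring genes of carbonyl reductases on chromosome 16. Cbr1 was at 28.9, 41.7 and 30.5 CPM in WT and at 60.7, 57.8 and 50.6 CPM in DKO libraries. Cbr3 was at 8.69, 26.0 and 7.97 CPM in WT and at 32.0, 32.1 and 42.1 CPM in DKO libraries, with the highest level of each genotype in the library that stood apart. In both genes all DKO libraries exceeded all WT libraries (adjusted p = 0.348 and 0.549 with 6, 0.00063 and 5.19e-05 with 4 libraries, edgeR's test).

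Genes at both ends of a stretch of distal chromosome 7, away from both targets, were higher in DKO cells. In 1 fit over all MEF days, which takes the spread from 24 libraries, 60 of 16996 genes (0.353%) were called at day 8, 34 higher (0.2%) and 26 lower (0.153%). Of the 34, 9 lie between Kndc1 and Gatd1 (chr7:139894696-141414136), a window whose bounds were set from these calls and which is therefore described and not tested. Of 35 genes tested there with 6 libraries, 15 had all DKO libraries above all WT libraries and none had them below (8.24% and 7.13% of all tested genes). The median log2 fold change of the window was 0.39, and 9 of 33 genes were called higher without the 2 libraries (2.27% of all genes). At day 12, 9 of 35 were called higher, beside 3.92% of all genes tested at that day.

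Within the window, Deaf1, a transcription factor, was at 28.3, 29.9 and 29.2 CPM in WT and at 47.9, 46.5 and 44.2 CPM in DKO libraries (log2 fold change 0.64 ± 0.07 SE, adjusted p = 0.0640 with 6 and 0.00221 with 4 libraries, edgeR's test). Taldo1, the transaldolase of the pentose phosphate pathway, was at 167, 187 and 165 CPM in WT and at 396, 355 and 265 CPM in DKO libraries (log2 fold change 0.95 ± 0.15 SE, adjusted p = 0.213 with 6 and 0.000298 with 4 libraries, edgeR's test). Tubgcp2, of the γ-tubulin complex, Fuom, a fucose mutarotase, Tmem80, Zfp511 and Gatd1 had log2 fold changes between 0.66 and 1.41. Echs1, of the β-oxidation list, lies inside the window. Deaf1 was higher in DKO cells by 0.60, 0.63, 0.64 and 0.49 on the log2 scale at days 0, 4, 8 and 12.

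**Figure D5:**
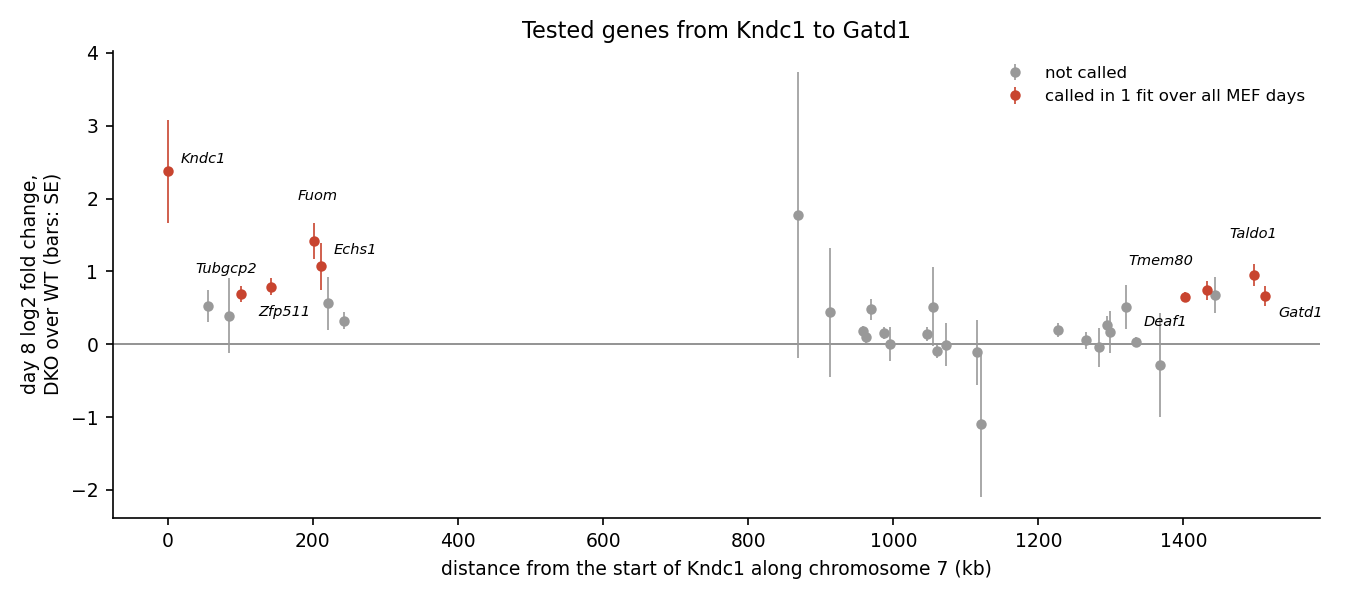
Day 8 log2 fold changes (DKO over WT, bars are SE of the 6-library fit) of the 35 tested genes from Kndc1 to Gatd1, by distance from the start of Kndc1 in kb. The 9 genes called in 1 fit over all MEF days, in red, lie at both ends of the window with values from 0.64 to 2.37, and genes in grey were not called in that fit.

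Whether the effect of genotype at day 8 differed from that at the neighbouring days was tested as an interaction. Between days 4 and 8 edgeR called none of 16047 genes (0%), with 371 (2.31%) at an unadjusted p under 0.05, and DESeq2 and limma-voom also called none. Without the 4 libraries that were nearest to the other day, 86 genes were called, 5 with a higher and 81 with a lower log2 fold change at day 8 than at day 4. This setting was added after the profiles were seen. It leaves out libraries by their likeness to the other day, so these 86 calls are not independent evidence. Between days 8 and 12 edgeR called none of 15994 genes (0%), with 1215 (7.6%) at an unadjusted p under 0.05, while DESeq2 called 40 and limma-voom 5. Thus day 12, with 1222 calls, and day 8, with 9, were not shown to differ in their effect sizes by the edgeR fit.

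The genes nearest to a call between days 8 and 12 were Pttg1, Il4ra and Isyna1 (adjusted p = 0.0566 for each in edgeR's test). Pttg1, the securin that holds sister chromatids together, was at 7.56, 10.4 and 6.36 CPM in WT and at 12.3, 14.2 and 17.5 CPM in DKO libraries of day 8, and at 2.64 to 3.15 and 22.8 to 25.1 CPM at day 12. Il4ra, the interleukin-4 receptor, did not separate at day 8 (log2 fold change -0.03) and had a log2 fold change of -0.63 at day 12. Isyna1, which makes inositol, turned from 0.29 to -0.69, and Itih5, a hyaluronan-binding protein, from -0.85 to 0.86 (adjusted p of the difference 0.200, edgeR's test). Fabp4 (log2 fold change 0.80 at day 8 and 0.66 at day 12) and Elovl3 (1.63 and 1.27) changed by less than the standard errors of the differences, 1.05 and 1.44. Lcn2 (1.05 and 0.02) did not pass the test of the difference either (adjusted p = 0.354, edgeR's test).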

How the data were processed

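RNA of the 6 day 8 MEF libraries was sequenced by the authors as 50 bp paired-end reads, trimmed with cutadapt 1.18, aligned to mm10 with STAR 2.7.0f and counted per gene with RSEM 1.3.0, per the labels and the methods of the study. The deposited expected counts are not normalized. They were rounded (5.6% to 6.28% of values were not whole) and fitted in R 4.3.3 with edgeR 4.0.16 (filterByExpr, TMM, robust quasi-likelihood test, genotype as the only term). CPM are TMM-scaled over 24 libraries. Calls needed an adjusted p (Benjamini-Hochberg) under 0.05 and a change of 1.5-fold or more. Intervals cover the spread between libraries. The SE of edgeR fits were derived from the test, as log2 fold change (without sign) over the square root of its F statistic. Members, the 37 gene lists and named genes were chosen with earlier results of these data known. Named are the HMGN genes, genes the study names, called genes with the smallest p without overlap, up to 4 genes a list (smallest p, highest CPM) and top interaction genes. Others are named after their values were seen: predicted genes among the calls, their parent genes, members of the chromosome 7 window, Adipoq, Plin5, Agt, Ang5 and those so marked. Positions and sequences are from GENCODE M21, matching all 55450 identifiers. Alternatives were DESeq2 1.42.0, limma-voom with quantile normalization (limma 3.58.1), library size scaling, other filters and thresholds, all days in 1 fit, a replicate block and leaving out libraries. Fits were tested first on simulated data that held no outlying library, so that check does not cover the spread within these groups. No replicate pair was a repeated library (chi-square per degree of freedom 2.16 to 157).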

Additional observations from a re-analysis of the deposited data

How the results depend on the processing

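The count of 9 called genes (2 higher, 7 lower) at day 8 changed with the tool, the filter and the libraries. DESeq2 called 97 (51 and 46), limma-voom 14 (3 and 11), no filter 25 (7 and 18), 1 fit over all MEF days 60 (34 and 26), and scaling by library size 6, of which 1 was higher. Leaving out any 1 library gave 5 to 6 (1 to 2 higher, 4 to 5 lower), and leaving out WT replicate 2 and DKO replicate 3 together, added after seeing the data, 609 (346 and 263). Since replicate numbers could pair libraries, a fit with the replicate block was made, which called 2 genes, 1 higher and 1 lower. Same-numbered libraries had correlations of 0.666, -0.535 and -0.732 after removing group means. These values follow WT replicate 2 and DKO replicate 3, which stood apart and had a correlation of 0.83 with each other. They therefore cannot show whether the numbers pair the samples. All 9 genes were among the calls of DESeq2, limma-voom, no filter and the fit without the 2 libraries. For day 8 against day 4, 86 genes (5 and 81) were called without 4 libraries, a setting added after seeing the data, and none otherwise. For day 12 against day 8, DESeq2 called 40 (11 and 29), limma-voom 5 (1 and 4), no filter 5 (1 and 4), library size scaling 1, lower, all days in 1 fit 1, higher, leaving out 1 library 0 to 8 (0 to 4 higher, 0 to 4 lower), and leaving out the 2 libraries 98 (29 and 69). The cause was not tested. Hmgn3 turned from -0.03 to 0.025 with limma-voom, 0.0028 with the block, 0.14 without the 2 libraries and -0.45 to 0.54 when 1 library was left out. Leaving out 1 library also moved Ppargc1b between -0.35 and 0.71, Adipoq between -0.30 and 0.90, Lyz2 between -0.66 and 0.36 and Il4ra between -0.057 and 0.0017. The median of chemokines was -0.25 with no filter, -0.26 without the 2 libraries and -0.44 to -0.30 when 1 was left out. Such ranges were -0.27 to 0.022 for endothelial, -0.22 to 0.70 for skeletal muscle, -0.28 to -0.041 for cartilage, -0.21 to 0.13 for HMGN, HMGA and HMGB, -0.27 to -0.15 for Hox, -0.92 to 0.28 for interferon-stimulated, 0.27 to 1.29 for adipocyte and -0.037 to 0.53 for brown and beige genes. The other lists whose range crossed 0 were cholesterol synthesis, adipogenic transcription factors, collagens, epithelial markers, insulin and IGF genes and MHC class I. Genes under about 1 CPM, such as Ucp1 and Cidea, are limited by depth.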
